A study of Mus musculus with 18 samples.

Results

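Conventional T cells (Tconv) of brown adipose tissue (BAT) were compared between mice kept in the cold and mice kept warm. Tconv cells are the CD4 T helper cells that are not regulatory T cells (Treg). The comparison rests on 6 of the 18 arrays of the series, 3 of cold BAT Tconv and 3 of warm BAT Tconv, chosen by their sample labels. BAT burns fuel to make heat when the body is cold, through the uncoupling protein UCP1 of its brown adipocytes, and it also holds immune cells in its stromo-vascular fraction. Tconv cells recognize antigen, divide and release cytokines, and Treg cells, which depend on the transcription factor Foxp3, restrain them.

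The labels give strain background C57BL/6 and genotype Foxp3-GFP-DTR-CD90.1 for both groups, a temp. of 30°C for warm and of 12°C for cold cells, and the cell type CD4+Foxp3- Tconv. The methods name instead female C57Bl6 mice bought at an age of 8 weeks, Tconv cells sorted as CD4+CD25-, 30°C for 2 weeks for all mice and then 12°C for 2 days for those of the cold group. Both accounts of the mice and of the sort are given here because the measurements cannot decide between them. Cells were sorted from pooled organs, so an array stands for a pool of mice and p-values measure the spread between pools, which may be in part technical. From 2.5 ng RNA a whole-transcriptome amplification product was made, labeled with biotin and hybridized to Illumina's MouseWG-6 v2.0 BeadChip, an array on which each probe sits on many beads.

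The deposited table names each probe by its Illumina identifier and holds 0 gene names, and no other probe annotation was used here. Probes are therefore given by identifier, the genes behind them are not named, and the Tconv label could not be checked against named T cell markers, only against probes that differed between splenic Treg and Tconv cells, given below. All 3 warm Tconv arrays lay on 1 BeadChip and all 3 cold Tconv arrays on another, each beside 3 Treg arrays of the same temperature, so that temperature and BeadChip cannot be told apart. In sorted bulk cells, fewer cells of one kind and less RNA per cell cannot be told apart either.

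Few differences between cold and warm BAT Tconv cells could be called at the precision of these arrays, and 1 probe fell in the cold. Of 17395 tested probes, 0 were called higher and 1 was called lower (0.00575% of the probes tested), where limma's moderated test had to give an adjusted p under 0.05 and the difference had to pass 2-fold for a call. The called probe was ILMN_2734340. At an unadjusted p under 0.05 there were 761 probes (4.37%), of which 447 were higher and 314 lower in the cold. This order turned to 206 higher and 602 lower when arrays were scaled to a common median, and to 596 higher and 722 lower when only the 6 Tconv arrays were fitted.

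ILMN_2734340 had normalized log2 signals of 7.58, 7.53 and 7.39 on the warm arrays and of 5.53, 5.55 and 5.69 on the cold arrays. All 3 cold arrays lay far below all 3 warm arrays, and neither group spread by more than 0.10 (SD). The mean fell from 7.50 to 5.59, a log2 difference of -1.91 (SE 0.24, 95% interval -2.42 to -1.39, n = 3 per group, adjusted p = 0.0223 by limma), or 3.75-fold lower on this scale. Before any correction the same probe read 410.3, 319 and 339 intensity units on the warm arrays and 173, 181 and 206 on the cold arrays. The cold readings were below the 95th percentile of the negative control probes of their own arrays (between 204 and 231), although the deposited detection p-value counted the probe as detected on all 6 arrays. The cold level is therefore close to background.

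The call of ILMN_2734340 was lost when any 1 of the 6 Tconv arrays was left out, with adjusted p-values from 0.111 to 0.213, while the log2 difference stayed between -1.96 and -1.87. It was also lost without background correction, where the log2 difference was -0.89 (adjusted p = 0.245).

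The same probe was higher in BAT Treg cells than in BAT Tconv cells at both temperatures. Its log2 signals were 9.01, 8.33 and 8.83 on the warm Treg arrays and 7.98, 8.87 and 8.53 on the cold Treg arrays, which overlapped. The cold minus warm log2 difference in Treg cells was -0.26 (SE 0.24, adjusted p = 0.999). The difference between both responses was -1.64 (SE 0.34), with an unadjusted p of 0.000247 and an adjusted p of 0.358 in limma's interaction test, so a response particular to Tconv cells was not shown. In splenic Tconv cells of warm mice the probe stood at 5.07, 5.05 and 5.13, below the Tconv cells of cold BAT. Spleen arrays lay on a further BeadChip.

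**Figure D1:**
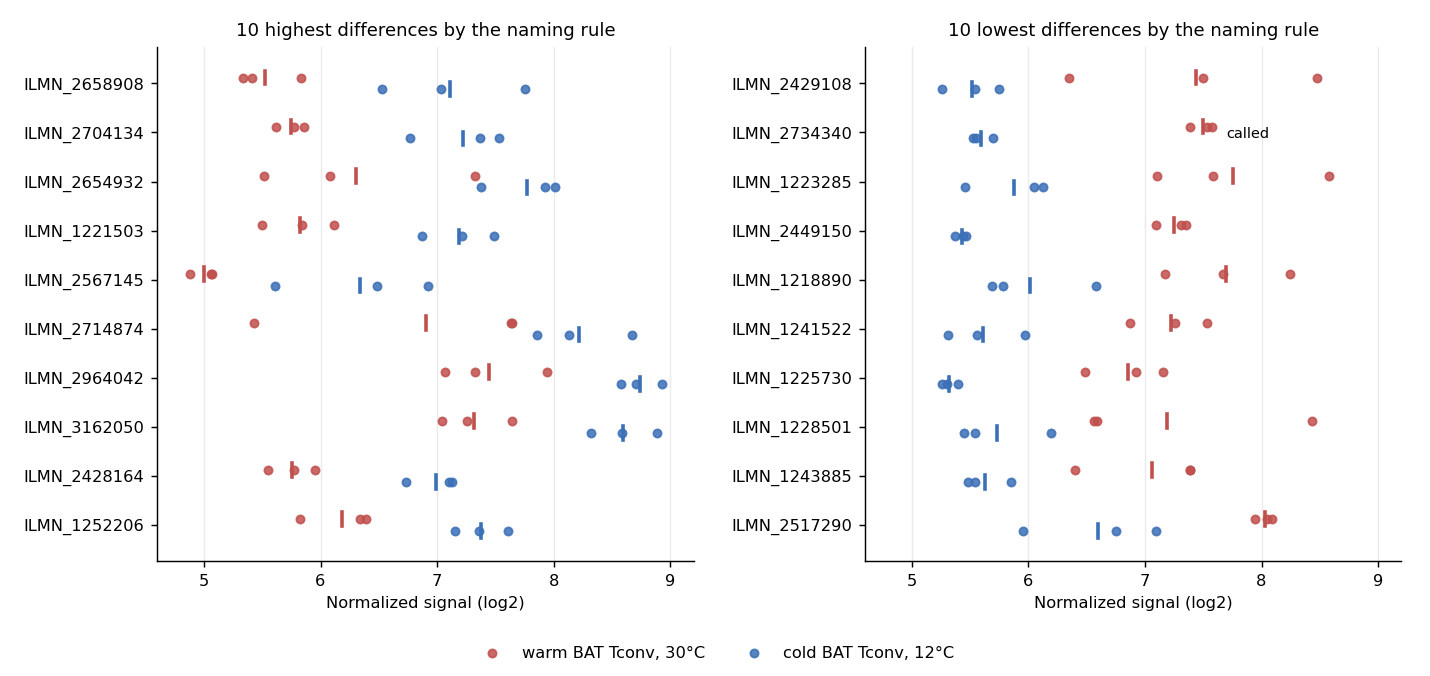
Normalized log2 signal (horizontal axis) of the 10 probes named for the highest (left) and the 10 named for the lowest (right) cold minus warm difference in BAT Tconv cells. Each point is 1 array, red for 30°C and blue for 12°C, and vertical bars are group means. The called probe ILMN_2734340 goes from 7.50 to 5.59 with little spread, and of the other probes ILMN_1225730 and ILMN_2449150 have the most tightly grouped cold arrays.

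With the processing used here, more probes passed 2-fold downward than upward in the cold. The mean was more than 2-fold lower for 186 probes (1.07%) and more than 2-fold higher for 72 (0.414%). This split of 27.9% higher depended on the scaling, since it was 10.8% (38 higher and 315 lower) when arrays were scaled to a common median in place of quantile normalization. Counted from the median of all probes under that scaling, it was 17.3% (47 higher and 225 lower). It also depended on cold array 3, without which 140 probes were higher and 162 lower. Background handling changed it too, with 26 higher and 38 lower at an offset of 50. Without background correction 2 probes were higher and 1 was lower. Differences were small for most probes, with a median size of 0.18 and a 95th percentile of 0.70 on the log2 scale. They ranged from -1.92 to 1.83.

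Counts of probes whose arrays did not overlap were even. All 3 cold arrays lay above all 3 warm arrays for 1192 probes (6.85%) and below them for 1203 (6.92%). Probes that joined a mean difference over 2-fold, an unadjusted p under 0.05 and no overlap numbered 20 higher (0.115%) and 72 lower (0.414%). The 10 highest and the 10 lowest of these are named below. Apart from ILMN_2734340, none of them passed the adjusted threshold, with adjusted p-values from 0.0764 to 1 (limma). Without background correction all 20 named probes were under 2-fold, with log2 differences of 0.55 to 0.83 and of -0.96 to -0.66. Several were near background on their dim side. Uncorrected, ILMN_2449150 read 169, 168 and 188 and ILMN_1241522 198.5, 182 and 176.5 on the cold arrays. The percentile of the negative controls used above was 204 to 231 there. ILMN_2658908 read 184, 183 and 174 on the warm arrays, where this percentile was 187 to 217.

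The second smallest adjusted p-value among all probes, 0.0764, was that of ILMN_1225730. It had log2 signals of 6.49, 7.16 and 6.92 on the warm arrays and of 5.26, 5.39 and 5.30 on the cold arrays, a difference of -1.54 (SE 0.23). The cold arrays were tightly grouped near background and the warm arrays lay more than 1 log2 unit above them. The probe was called in the alternatives with median scaling and with array weights. Its difference in Treg cells was -0.81 (SE 0.23, adjusted p = 0.360).

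Groups were tighter for ILMN_2449150 than for ILMN_1225730 at both temperatures. ILMN_2449150 had 7.35, 7.10 and 7.31 warm and 5.46, 5.37 and 5.44 cold, a difference of -1.83. Its SE of 0.68 was nonetheless large, because the spread is estimated over all 18 arrays and this probe ran from 5.90 to 8.55 on the cold Treg arrays and from 5.85 to 8.54 on the splenic Tconv arrays. Fitted on the 6 Tconv arrays alone it was called (adjusted p = 0.0427), together with ILMN_2734340. In the fit of all arrays its adjusted p was 1.

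ILMN_1223285 had 8.58, 7.58 and 7.10 on the warm arrays and 6.12, 6.05 and 5.45 on the cold arrays, a difference of -1.88 (SE 0.38). ILMN_1218890 had 8.25, 7.67 and 7.17 warm and 5.68, 6.58 and 5.78 cold, a difference of -1.68 (SE 0.34). ILMN_1241522 had 7.26, 7.53 and 6.87 warm and 5.98, 5.56 and 5.31 cold, a difference of -1.61 (SE 0.32). These 3 probes shared an adjusted p of 0.494, and in the last of them the gap between the groups was wider than the range within either, whereas the warm arrays of the other two ranged more widely than the gap. Both ILMN_1223285 and ILMN_1218890 were higher in warm BAT than in splenic Treg cells, by 3.59 and 1.78 log2 units.

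The other 4 probes at the lower end had arrays scattered within a group and larger errors. ILMN_2429108 had the lowest difference of all (-1.92, SE 0.71), with warm values of 7.50, 6.35 and 8.47 and cold values of 5.74, 5.26 and 5.54. ILMN_1228501 had 8.43, 6.58 and 6.56 warm and 5.45, 6.20 and 5.55 cold, a difference of -1.46 (SE 0.49) that was -0.84 without warm array 1. ILMN_1243885 (-1.43, SE 0.49) had 6.40, 7.39 and 7.38 warm and 5.55, 5.85 and 5.48 cold, and without warm array 1 its difference was -1.76. In ILMN_2517290 the scatter was on the cold side, with 5.95, 7.10 and 6.75 against warm values of 8.05, 8.09 and 7.94 (difference -1.43, SE 0.59). Each of these 4 had an adjusted p of 1.

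Among the 10 probes at the upper end the smallest adjusted p was 0.804, that of ILMN_2964042. Its log2 signals were 7.94, 7.32 and 7.07 warm and 8.71, 8.58 and 8.93 cold, a difference of 1.29 (SE 0.33). It was also bright in BAT Treg cells, with 8.58 to 9.57 warm and 8.91 to 10.20 cold, and dim in splenic Tconv cells, with 5.87 to 6.53. The highest difference among the 10 was that of ILMN_2658908, 1.58 (SE 0.44, adjusted p = 0.898), from 5.41, 5.83 and 5.33 warm to 7.76, 7.04 and 6.53 cold. The same probe was 1.71 (SE 0.44, adjusted p = 0.254) higher on the cold than on the warm Treg arrays.

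ILMN_3162050 had 7.05, 7.64 and 7.26 warm and 8.32, 8.89 and 8.59 cold (difference 1.28, SE 0.45). ILMN_1252206 had 6.34, 6.39 and 5.83 warm and 7.36, 7.15 and 7.61 cold (1.19, SE 0.40). ILMN_1221503 had 5.50, 5.84 and 6.12 warm and 7.21, 7.49 and 6.87 cold (1.37, SE 0.50). In these 3 the gap between groups was wider than the range within them, and each had an adjusted p of 1. ILMN_2428164, ILMN_2704134 and ILMN_2654932 had differences of 1.23, 1.47 and 1.47 (SE 0.53, 0.61 and 0.56). In ILMN_2654932 the gap was narrow, with a highest warm value of 7.32 and a lowest cold value of 7.38.

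ILMN_2714874 had warm values of 5.43, 7.64 and 7.64 and cold values of 8.13, 7.85 and 8.67, a difference of 1.32 (SE 0.61) that was 0.58 without warm array 1. ILMN_2567145 was the only one of the 20 named probes that was not detected on any array of a group. It was not well above background on the 3 warm arrays and read 6.48, 5.61 and 6.92 on the cold arrays. With each warm array set to the lowest signal detected on it, the cold mean was 2.36-fold higher. This ratio uses normalized log2 values and is an estimate, not a lower limit. For the measured signals limma's interval ran from 0.22 to 2.46 log2 units (adjusted p = 1 by limma). Without background correction the log2 difference was 0.78.

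**Figure D2:**
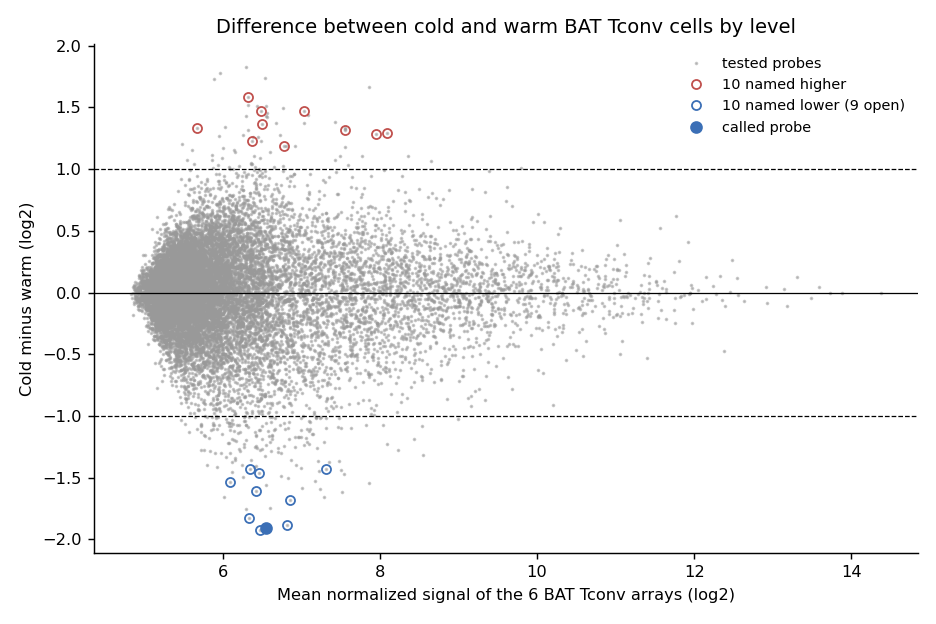
Cold minus warm log2 difference (vertical axis) of the 17395 tested probes against their mean normalized log2 signal on the 6 BAT Tconv arrays. Dashed lines mark 2-fold, open circles the named probes and the filled circle the called probe. No probe of the lowest quartile by level passes 2-fold, and 186 probes lie below the lower and 72 above the upper dashed line.

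Differences over 2-fold came from the brighter part of the probes. In the lowest quartile by mean level (log2 4.84 to 5.35) 0 probes passed 2-fold in either direction, in the second quartile 5 higher and 5 lower, in the third 26 and 74, and in the highest (from 6.39 upward) 41 and 107. Background correction with an offset compresses signals in the lowest quartile, so this order does not show that dim transcripts differed less. Unadjusted p-values under 0.05 were most frequent in the third quartile, at 7.01%, and least frequent in the lowest, at 1.75%.

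On the scale used here the arrays bounded many probes and left others open. The median SE of a cold minus warm difference was 0.286 log2 units, which gave a median half-width of 0.612 for the 95% interval. For 10696 probes (61.5%) the interval lay within 2-fold in both directions, whereas for 6699 (38.5%) it reached beyond 2-fold on at least 1 side. It lay wholly beyond 2-fold for 3 probes. The percentage within 2-fold was 89.1% in the lowest quartile, 76.1% in the second, 49.1% in the third and 31.6% in the highest. Absence of a call thus leaves a 2-fold difference open for most of the bright probes. Counts within 2-fold depended on the scale, and were 13965 with an offset of 50 and 16213 without background correction. In the lowest quartile, where signals are compressed, 244 of 4349 probes were detected on all 6 arrays. Narrow intervals there do not bound the change of a dim transcript.

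The spread between replicate arrays, which contains the error between beads, exceeded that error for most probes. On log2 intensities that were quantile-normalized without background correction, the median error of a probe's mean over its beads was 0.0767 and the median SD between replicate Tconv arrays was 0.152, which is 1.98 times as much. The ratio went from 1.53 in the lowest quartile to 2.80 in the highest. The SD between replicates exceeded the bead error for 88.1% of the probes. For ILMN_2734340 the order was turned around, with an SD between replicates of 0.0506 and a bead error of 0.0633, from between 35 and 57 beads per array.

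**Figure D3:**
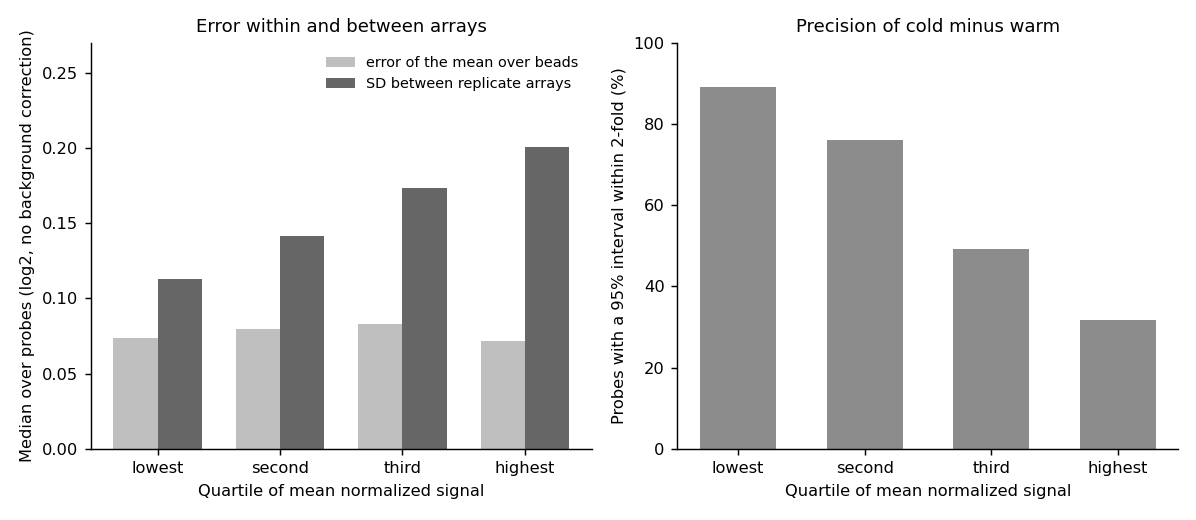
Left, median error of the mean over beads and median SD between replicate arrays (log2, no background correction) by quartile of mean signal on the 6 BAT Tconv arrays. Right, percentage of probes whose 95% interval for cold minus warm lies within 2-fold. The replicate SD grows from 0.113 to 0.201 across quartiles and the bead error stays between 0.072 and 0.083, while the percentage falls from 89.1% to 31.6%.

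Compared as wholes, cold arrays resembled warm arrays about as much as they resembled each other. The mean Pearson correlation across tested probes was 0.920 among the warm arrays (3 pairs), 0.901 among the cold arrays (3 pairs) and 0.902 between them (9 pairs). Probes are not independent replicates, and these values are descriptions. Cold array 2 correlated with the warm arrays at 0.920 on average, as closely as these did with each other, whereas cold arrays 1 and 3 did so at 0.896 and 0.890. On the first principal component (28.5% of the variance) the arrays lay at -33.1, -14.5 and -10.3 for warm and 21.7, -4.3 and 40.5 for cold, so that cold array 2 lay nearest to the warm group. On the second component (22.5%) cold array 1 stood apart at -43.9. Without cold array 2 495 probes passed 2-fold, against 258 with it, but 0 were called.

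Some measures of array quality differed between the warm and the cold Tconv arrays, which lay on different BeadChips. The percentage of probes with a detection p-value under 0.05 was 40.1, 38.2 and 37.8 on the warm arrays and 36.5, 37.6 and 35.7 on the cold arrays, without overlap. The high Cy3 hybridization controls, labeled oligonucleotides that are added for hybridization and do not come from the cells, read between 15184 and 16389 on the warm arrays and between 13336 and 13682 on the cold arrays. The medium and low controls did not overlap either. All 4 differences had a two-sided exact permutation p of 0.1, the smallest that 3 against 3 arrays allow, and an adjusted p of 0.378 over the 17 measures compared. The Treg arrays of the same BeadChips showed the same order of the high controls, with 14936 to 16065 warm and 13392 to 14345 cold. Percentages detected overlapped on these Treg arrays, with 38.5 to 42.2 warm and 37.1 to 41.7 cold, and so did the low controls. Housekeeping controls had medians of 868 to 1813 on the warm and 573 to 925 on the cold Tconv arrays, which overlapped. The part of these measures in the differences between cold and warm cells was not tested.

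**Figure D4:**
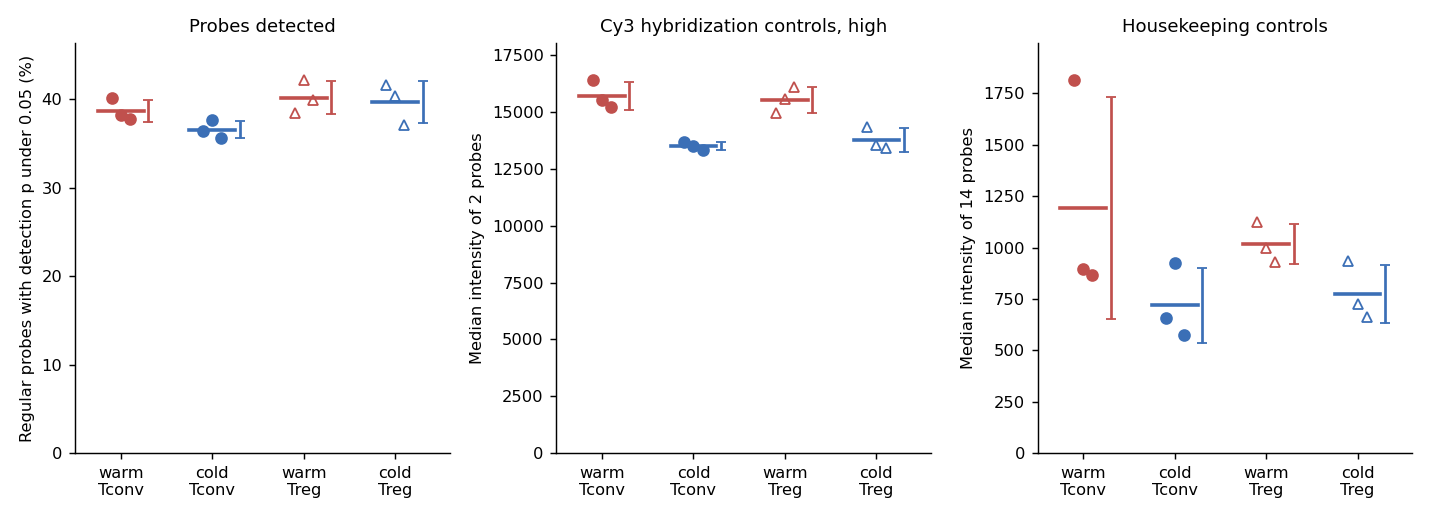
Percentage of regular probes detected (left), median intensity of the high Cy3 hybridization controls (middle) and of the housekeeping controls (right) on each of the 12 BAT arrays. Points are arrays, circles for Tconv and triangles for Treg, horizontal lines are means and error bars are SD (n = 3). The hybridization controls are lower on the cold BeadChip for both cell types, with cold Tconv arrays at 13336 to 13682 and warm ones at 15184 to 16389.

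Detection itself was mostly shared. Of the 17395 tested probes, 10976 (63.1%) were detected on all 6 Tconv arrays, 81 on all 3 cold and 0 warm arrays, and 181 on all 3 warm and 0 cold arrays. A further 241 were detected on none of the 6. Of the tested probes 2597 (14.9%) had entered the test only through a group other than BAT Tconv. The deposited detection p-value is lenient, since between 22.1% and 24.9% of the negative control probes on the 6 arrays also passed it. Of the 181 probes detected on warm arrays alone, 5 were more than 2-fold lower, and of the 81 detected on cold arrays alone, 2 were more than 2-fold higher, so most changes of detection went with small differences in signal.

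The cold response of Treg cells, measured on the same BeadChips, was set beside that of Tconv cells. In BAT Treg cells 13 probes were called higher and 2 lower (0.0862%), and 254 (1.46%) and 253 (1.45%) passed 2-fold. The direct test of the difference between both responses called 0 probes, with 687 (3.95%) at an unadjusted p under 0.05 and a smallest adjusted p of 0.101 (limma), which more than 1 probe shared. The smallest unadjusted p, 7.03e-06, was that of ILMN_1227666, which was not detected on any of the 6 Tconv arrays (log2 4.86 to 5.02) and stood at 4.91 to 4.98 on the warm and at 7.01, 7.55 and 8.46 on the cold Treg arrays. A response in Treg cells and none in Tconv cells was therefore not shown for any probe by this test.

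Across the 17395 probes the cold minus warm differences of Tconv and Treg cells correlated weakly, with r = 0.142, and had the same sign for 52.7%. Over the 9235 probes detected on all 12 BAT arrays r was 0.153. The points share BeadChips, since all warm arrays lay on one and all cold arrays on another, so this value is a description. Of the 10 probes named higher in cold Tconv cells 8 were also higher in cold Treg cells, and of the 10 named lower 9 were also lower. The differences in Treg cells were smaller for most of these probes, which their choice by size in Tconv cells favors in advance. In Treg cells 0 of the 20 were called, beside 0.0862% of all tested probes, so this count does not set them apart.

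**Figure D5:**
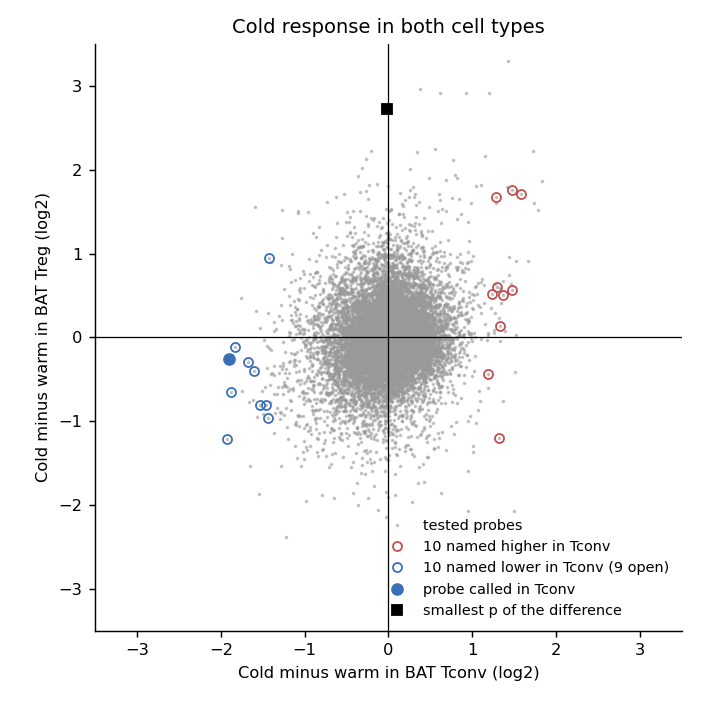
Cold minus warm log2 difference in BAT Treg cells (vertical axis) against that in BAT Tconv cells (horizontal axis) for the 17395 tested probes. Open circles are the named probes, the filled circle is ILMN_2734340 and the square is ILMN_1227666, with the smallest p for the difference between both responses. Probes scatter around 0 in both cell types, with r = 0.142.

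A pair of probe lists chosen on splenic cells was used to ask whether the Treg and Tconv identities shifted with temperature. The 103 probes called higher in splenic Treg than splenic Tconv cells had mean log2 levels in BAT Tconv cells of 7.15 ± 0.08 in the cold and 7.17 ± 0.03 in the warm (SD, n = 3), with 52 members higher and 51 lower in the cold. The 59 probes called lower in splenic Treg cells had levels of 6.71 ± 0.09 and 6.74 ± 0.08, with 28 higher and 31 lower. The median difference was 0.00 for the first and -0.02 for the second list, beside 0.01 over all tested probes. Neither level differed by more than the spread between arrays. Of either list 0 members were called, beside 0.00575% of all tested probes, so this count says nothing particular about the lists. The same lists bear on the Tconv label. The Treg-high probes stood at 7.15 to 7.17 in BAT Tconv cells, nearer to BAT Treg cells (7.63 to 7.65) than to splenic Tconv cells (5.90), and the Treg-low probes at 6.71 to 6.74, between splenic Tconv (7.84) and splenic Treg cells (5.82) and above BAT Treg cells (6.24 to 6.31). Spleen and BAT arrays lay on different BeadChips, and the splenic levels chose the lists.

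Probes that differed between BAT and spleen gave larger differences, which changed with the arrays used to choose them. The 442 probes called higher in warm BAT Treg than in splenic Treg cells had mean levels in BAT Tconv cells of 6.41, 6.56 and 6.36 in the cold and 6.82, 6.58 and 6.45 in the warm, which overlapped. Of these probes 275 were lower (62.2%, beside 48.4% of all tested probes) and 167 higher in cold Tconv cells. Their median difference was -0.13 beside 0.01 over all tested probes. The mean level differed by -0.17, and by -0.07 without warm array 1. All 3 cold arrays lay below the warm ones for 80 of them (18.1%, beside 6.92% of all tested probes). Of the 442 probes 34 were more than 2-fold lower, beside 1.07% of all tested probes. The 1 member called, ILMN_2734340, was the only call among all tested probes (0.00575%), so this count says nothing particular about the list. The 150 probes called lower in warm BAT Treg cells had levels of 7.16, 6.98 and 7.06 in the cold and 6.80, 6.89 and 6.92 in the warm, without overlap. Of these 150 probes 116 were higher and 34 lower in cold Tconv cells (22.7% lower, beside 48.4% of all tested probes). With arrays scaled to a common median, where the median of all tested probes was -0.08, the median difference of the same 150 probes was 0.01 in place of 0.18, and 95 of them lay above the median of all probes.

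The warm BAT Treg arrays that chose these lists lay on the same BeadChip as the warm Tconv arrays. When the lists were chosen on cold BAT Treg arrays instead, against the same splenic Treg arrays, the 594 BAT-high probes had levels in Tconv cells of 6.19 ± 0.10 in the cold and 6.19 ± 0.11 in the warm, with 300 higher and 294 lower. The 314 BAT-low probes had levels of 6.73 ± 0.13 and 6.63 ± 0.04, with 211 higher and 103 lower. The lists shared 282 BAT-high and 88 BAT-low probes, which is 63.8% and 58.7% of the lists chosen on warm arrays and 47.5% and 28% of those chosen on cold arrays. The difference in BAT-high probes between cold and warm Tconv cells was thus seen with one choice of arrays and not with the other, and it was smaller without warm array 1.

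The wider sets of probes that differed in Tconv cells were looked up in Treg cells. Of the 72 probes more than 2-fold lower in cold Tconv cells with an unadjusted p under 0.05 and no overlap, 57 (79.2%) were higher in warm BAT Treg than in splenic Treg cells, beside 42.1% of all tested probes, and 15 (20.8%) were called so, beside 2.54% of all tested probes. Of the 20 probes on the upper side 11 (55%) were higher in warm BAT Treg cells and 5 (25%) were called so. In Treg cells the 72 lower probes had a median cold minus warm difference of -0.27, with 48 lower and 24 higher. The 20 probes on the upper side had a median difference of 0.51 there, with 14 higher and 6 lower. Over all tested probes the median in Treg cells was -0.04, with 9797 lower and 7598 higher. Both sets were chosen for large differences on BAT arrays, and the 72 for high signals on the warm ones. Their median log2 levels were 6.27 for the 72 and 6.45 for the 20 probes, beside 5.69 over all tested probes. The part of this choice, of level and of the shared BeadChips in these counts was not tested.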

How the data were processed

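Members, probe lists and comparisons were chosen with earlier results of these data known. Cold and warm BAT Tconv cells were measured on 6 of 18 arrays (3 BeadChips of 6 arrays, 6 groups of 3). The authors deposited 1 table of mean bead intensity per probe and array, without normalization or background subtraction, with a detection p-value of unstated calculation. The deposited standard deviation over beads and number of beads were used for the bead error, and 36 further per-sample columns of the table were not used. For statistics in general the paper names a two-tailed t-test, run here as an alternative, and the normalization is not given in the sources used here.

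In R 4.3.3, limma 3.58.1 (neqc) subtracted a background modelled on 936 negative controls from 45267 regular probes, with 16 added as an offset, before quantile normalization of all 18 arrays together and a log2 transform. To be tested, a probe had to be detected (p-value under 0.05) on every array of some group, which held for 17395 probes. These were tested by lmFit and eBayes with 1 mean per group and 12 residual degrees of freedom, with Benjamini-Hochberg adjustment over these probes. Calls required an adjusted p under 0.05 and a difference over 2-fold. Of 153 pairs of arrays, 0 were identical. The bead error of a probe is the SD over beads divided by the square root of their number and by the mean, on the log2 scale. Array measures were compared by two-sided exact permutation tests. The fit was tested on simulated data. Python 3.11.15 with matplotlib 3.10.9 drew the figures.

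Named were all called probes, the 10 probes at either end by log2 difference among those over 2-fold with an unadjusted p under 0.05 and no overlap between the arrays, and the probe with the smallest p for the difference between the Tconv and Treg responses. The alternatives were an offset of 50, uncorrected background, median scaling, BAT or BAT Tconv arrays normalized and fitted alone, 4 other filter settings, the replicate number as a block, only the arrays compared, array weights, the methods' t-test and each array left out. Lists of T cell and tissue genes were not run, as the table holds 0 gene names. Probe sequences and positions were not used here. The number of arrays and the signal over background limit the precision.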

Additional observations from a re-analysis of the deposited data

How the results depend on the processing

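With no array left out, ILMN_2734340 was called in 7 of 12 alternatives of the limma fit and had adjusted p-values from 0.000857 to 0.245. Its log2 difference kept its sign in each. Settings that changed only the filter left this difference at -1.91, so they are not separate evidence. The methods' t-test, given below, is not among the 12. The number of probes called in Tconv cells was 0 without background correction, with an offset of 50, with the 12 BAT arrays both normalized and fitted alone and without the filter, and 2 with median scaling, with the 6 Tconv arrays fitted alone, whether or not also normalized alone, and with array weights. By the methods' t-test on log2 signals, 108 probes over 2-fold (18 higher and 90 lower) had an unadjusted p under 0.05 and 0 passed once p-values were adjusted, and on linear signals these numbers were 1 and 0. ILMN_1225730 was called with median scaling (log2 -1.62, adjusted p = 0.0188).

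The number over 2-fold was 3 without background correction, 64 with an offset of 50 and 20 on linear signals. Unadjusted p-values under 0.05 numbered 1318 with the 6 Tconv arrays fitted alone, 1326 with these also normalized alone, 1347 with array weights, 1225 by the t-test on log2 signals, 1786 without the filter and 329 above the 95th percentile of the negative controls. Intervals within 2-fold numbered 16213 without background correction, 37801 without the filter and 2485 above the 95th percentile. The interaction test called 6 probes with median scaling and 1 with array weights. In Treg cells the number called was 2 without background correction, 9 with an offset of 50, 42 with median scaling, 6 with the 12 BAT arrays normalized and fitted alone, 9 without the filter, 8 above the 95th percentile, 1 with probes detected in a Tconv group, 0 with only the Treg arrays fitted and 54 with array weights. The t-test gave 150 (log2) and 24 (linear) probes unadjusted and 0 adjusted.

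With median scaling, which also changed the lists (961 BAT-high and 8 BAT-low probes in place of 442 and 150), mean levels differed by -0.17 for Treg-high, -0.19 for Treg-low, -0.33 for BAT-high and -0.0765 for BAT-low probes. Lists chosen on cold BAT Treg arrays, an alternative chosen after seeing the data, gave -0.00638 for BAT-high in place of -0.17 and 0.11 for BAT-low in place of 0.20. ILMN_1227666, at background in Tconv cells, changed sign from -0.01 to 0.00333 with median scaling and ranged from -0.0441 to 0.0357 with each array left out, with 0.0357 without cold replicate 1 and 0.00994 without warm replicate 2. The cause of these changes was not tested.

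Leaving out each array in turn gave 0 calls in Tconv cells, 291 to 495 probes over 2-fold, 0 to 8 calls of the interaction and 8 to 81 calls in Treg cells. The interaction reached 8 calls, all lower in Tconv cells, and the Treg comparison 81 without cold Treg replicate 3. With the replicate number as a block, 0 probes were called in Tconv cells (ILMN_2734340 at an adjusted p of 0.0724), 0 in the interaction and 9 in Treg cells. Deviations of same-numbered cold and warm Tconv arrays, which had the same position on their BeadChips, correlated at 0.05, 0.00 and 0.09. Those of same-numbered Tconv and Treg arrays correlated at 0.19, 0.06 and 0.08 in the warm and at 0.04, -0.01 and 0.12 in the cold. What the replicate numbers stand for was not tested. The gene lists could not be run under any setting. Depth in the sense of reads does not apply, and signals close to the negative controls limit the dim probes.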
